A study of Homo sapiens with 6 samples.

Results

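The genes examined were 10 genes whose products mark the endothelium, the cell layer that lines blood vessels. They were PECAM1, CDH5, KDR, FLT1, TEK, TIE1, VWF, ENG, EMCN and ROBO4. They were chosen by name from general knowledge of the cell type, with earlier results of these data known. The array names 34423 genes on 50599 probes, and these 10 genes have 15 probes on it. The tumors were subcutaneous grown from BxPC-3 cells, a line derived from a human pancreatic adenocarcinoma, which were injected with Matrigel into female BALB/c (nu/nu) nude mice aged 8 to 10 weeks. Of the 6 tumors, 3 were controls, whose hosts received the vehicle, and 3 came from mice dosed with 200 mg/kg of deferasirox (DFX), an iron chelator, by oral gavage every second day for 21 days. RNA of each tumor was hybridized to a one-color human array of 60-base probes, with the whole series on 1 slide. Row 1 of the slide held the controls and row 2 the DFX tumors, so the row and the treatment cannot be told apart.

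Endothelial cells respond to a small number of ligand and receptor systems. Vascular endothelial growth factors bind the receptors FLT1 and KDR, and angiopoietins bind TEK, which pairs with the related receptor TIE1. PECAM1 and CDH5 (VE-cadherin) hold neighbouring endothelial cells together at their junctions, and ENG (endoglin) is a co-receptor for ligands of the TGF-β family. VWF is stored in endothelial cells and released to capture platelets, EMCN is a surface sialomucin, and ROBO4 is a receptor of the roundabout family found in vessels. In a xenograft, tumor cells are human whereas vessels grow in from the mouse host. The probes are of human sequence, and how much of each signal came from human and how much from mouse RNA was not tested. In whole tumors, fewer cells of a type and less RNA per cell cannot be told apart either.

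The probes on which the results turn are shown because each reads only a short stretch of its transcript, and human and mouse RNA would have to match that stretch. They are written 5′ to 3′ in lower case, with no letter marked, and positions are those of the array's annotation on hg19. The brightest PECAM1 probe lies at chr17:62400544-62400603 on the minus strand, and only its first 30 bases are shown. The second PECAM1 probe, 68 bases away at chr17:62400672-62400731, is likewise shown by its first 30 bases, and the third, at chr17:62407257-62407316, is shown whole. The TIE1 probe lies at chr1:43788328-43788387 on the plus strand. The ENG probe, on the minus strand, spans 1155 bases at chr9:130578317-130579471 with its 60 bases, so it crosses a splice junction. The VWF probes lie on the minus strand at chr12:6058183-6058242 (the brightest) and chr12:6132864-6132923.
PECAM1 A_23_P252471, first 30 bases: cgcctgtgaaataccaacctgaagacacgg
PECAM1 A_33_P3405213, first 30 bases: ttcaaaggcttgtagttttggctagtcctt
PECAM1 A_33_P3229402: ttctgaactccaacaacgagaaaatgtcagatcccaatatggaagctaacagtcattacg
TIE1 A_23_P126416: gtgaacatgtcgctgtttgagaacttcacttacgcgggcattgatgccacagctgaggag
ENG A_23_P83328: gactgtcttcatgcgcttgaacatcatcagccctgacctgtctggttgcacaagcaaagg
VWF A_23_P105562: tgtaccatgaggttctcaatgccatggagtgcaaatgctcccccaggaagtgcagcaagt
VWF A_21_P0012280: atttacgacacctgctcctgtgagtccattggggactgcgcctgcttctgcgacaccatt

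Many of the endothelial probes were dim on these arrays. Of the 15 probes, 5 were flagged well above background on all 6 arrays, 4 on some arrays and 6 on none. The 5 probes belong to 4 genes, PECAM1, CDH5, TIE1 and VWF, whereas KDR, FLT1, EMCN and ROBO4 were well above background on no array. Across all probes, 48.2% were well above background on all arrays and 37.4% on none, so probes without such signal were about as common over the whole array. Between 50.3% and 56.5% of the probes of an array were well above background, with the lowest share in DFX replicate 2, and no spot was saturated. The VEGF receptors were therefore not measurable, and the data for the 10 genes rest on a few probes. A probe was tested where its background p-value was under 0.05 on all arrays, which left 10 probes of 7 genes. TEK, EMCN and ROBO4 had no tested probe. The intensities below are log2 of the background-subtracted signal after quantile normalization, differences are DFX minus control, and levels are not set against each other between probes. Having only 3 arrays in a group limits the precision of all of these values.

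Of the endothelial genes, 3 passed an unadjusted p under 0.05 in limma, PECAM1 being higher and TIE1 and ENG lower in the DFX tumors. Thus 3 of 7 tested genes had a called probe, against 10.8% of the tested genes on the whole array. By the brightest tested probe alone the same 3 genes were called, against 7.98% of all tested genes. At the level of probes, 5 of 10 were called, against 8.41% of all tested probes (3.46% higher and 4.95% lower). With so few members, of which 3 probes are for PECAM1 and share 1 transcript, these counts describe the genes only. The groups did not overlap for 4 of the 10 tested probes, against 15.5% of all tested probes. No call survived adjustment in the processing reported. Among the 31807 tested probes, 2675 passed unadjusted and 0 passed after Benjamini-Hochberg adjustment in limma. The Kruskal-Wallis H test gave none either, with a lowest adjusted p of 0.320 in these data. Its unadjusted p cannot fall below 0.0495 with 3 tumors against 3. The lowest adjusted p was 0.0675 over all probes and 0.504 over the endothelial probes. The median difference over the 7 genes, by their brightest tested probe, was -0.29, beside -0.01 over all tested genes, and it was -0.56 without control replicate 2. The median of -0.29 is the value of KDR, which was well above background on no array, so it is a reading near background. The genes did not move one way, as 2 of the 7 had a positive and 5 a negative difference. FLT1, among the positive, and KDR, among the negative, were well above background on no array.

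**Figure D1:**
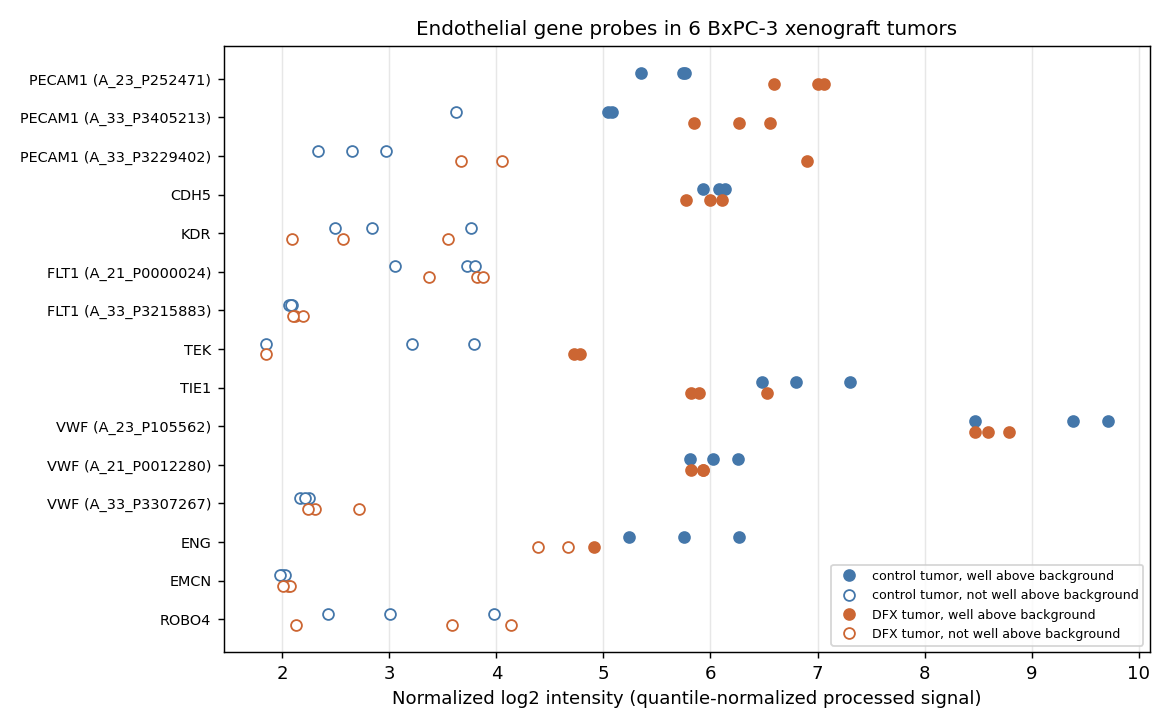
Normalized log2 intensity of each endothelial gene probe in a row of its own, for the 3 control (blue) and 3 DFX (orange) tumors, 1 point per tumor and filled where well above background. The PECAM1 points of the DFX tumors lie above those of the controls, the ENG points lie below them, and the KDR, FLT1, EMCN and ROBO4 points were well above background on no array.

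PECAM1, an adhesion molecule of endothelial junctions that is also carried by platelets and many leukocytes, was higher in the DFX tumors by all 3 of its probes. Its brightest probe, well above background on all arrays, read 5.35, 5.74 and 5.76 in control replicates 1 to 3 and 7.0, 7.06 and 6.59 in DFX replicates 1 to 3. Every DFX tumor was above every control tumor. The difference was 1.27 ± 0.19 (SE, n = 3 per group), a 2.41-fold rise that passed unadjusted, with a 95% interval of 0.81 to 1.72 on the log2 scale (limma, adjusted p = 0.504). An exact two-sided permutation test on such a separation gives p = 0.1, the smallest that 3 tumors against 3 allow.

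The second PECAM1 probe, in the same stretch of the gene, read 3.62, 5.08 and 5.04 in the controls and 6.27, 6.56 and 5.85 in the DFX tumors. It was well above background in 2 control and 3 DFX tumors, and the groups again did not overlap. Its difference was 1.64 ± 0.44 (SE, n = 3 per group; limma, adjusted p = 0.514). The third PECAM1 probe lies farther upstream in the transcript and was dim. It read 2.97, 2.65 and 2.33 in the controls and 6.90, 3.67 and 4.05 in the DFX tumors, and it was well above background only in DFX replicate 1. Against the lowest signal well above background, that amounts to at least 1.88-fold higher in the DFX tumors (limma, adjusted p = 0.580). DFX replicate 1 carried much of it, since the measured difference went from 2.22 to 1.21 without that tumor and no bound remained. Leaving out any 1 control tumor ended the call of this probe, with differences of 2.38, 2.22 and 2.06 without control replicates 1, 2 and 3. The brightest probe kept its call under every alternative processing run, with differences of 0.58 to 1.42, and the mean of the 3 probes was called as well (1.71). The size of its difference depended on the background subtraction, falling from 1.27 to 0.67 with normexp correction and to 0.58 on the raw mean signal.

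Markers of other cells that carry PECAM1 were read beside it. Of 13 leukocyte and platelet genes on the array, 10 were tested, 6 were well above background on all arrays, and 1 was called, against 10.8% of all tested genes. That gene was ITGA2B, the platelet integrin subunit, whose probe was well above background in 1 control and no DFX tumor, so that no fold is given (limma, adjusted p = 0.546). The platelet chemokines PF4 and PPBP and the macrophage receptor CSF1R were well above background on no array. The summed signal of the list (the brightest probe of each gene, on the linear scale) was 4840 to 7004 in the controls and 5182 to 6194 in the DFX tumors, overlapping ranges. The CD79A probe made up much of this sum, which therefore says little about the other genes of the list. The part of these cells in the PECAM1 difference was not tested.

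CDH5, the cadherin of endothelial junctions, did not follow PECAM1. Its probe was well above background on all arrays and read 5.93, 6.08 and 6.14 in the controls and 6.11, 6.00 and 5.77 in the DFX tumors, with overlapping groups. The difference was -0.09 ± 0.13 (SE, n = 3 per group), with a 95% interval of -0.41 to 0.23 (limma, adjusted p = 0.862). This interval does not reach the interval of the brightest PECAM1 probe, which starts at 0.81. The difference between these genes was itself not tested.

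**Figure D2:**
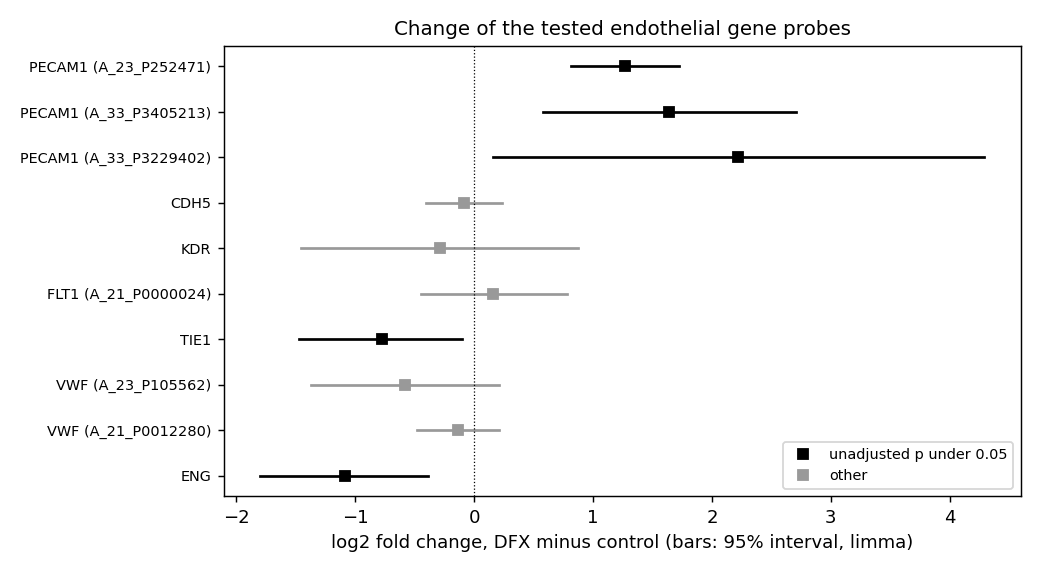
Difference in log2 intensity (DFX minus control) of the 10 tested endothelial gene probes with 95% limma intervals, black where the unadjusted p was under 0.05. The 3 PECAM1 intervals lie above 0, those of TIE1 and ENG lie below 0, and the CDH5 interval runs from -0.41 to 0.23.

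TIE1, the receptor that pairs with TEK, was lower in the DFX tumors. Its probe was well above background on all arrays and read 6.48, 7.30 and 6.80 in the controls and 5.89, 5.82 and 6.53 in the DFX tumors. DFX replicate 3 lay just above control replicate 1, so that the groups overlapped. The difference was -0.78 ± 0.28 (SE, n = 3 per group), a 1.72-fold fall with a 95% interval of -1.47 to -0.10 (limma, adjusted p = 0.570). This call was fragile. It was lost without control replicate 2 (-0.56), control replicate 3 (-0.81), DFX replicate 1 (-0.69) or DFX replicate 2 (-0.65). With the column of the slide as a block the difference was -0.47 and did not pass, but only columns 2 and 4 held both groups, so control replicate 2 and DFX replicate 1 did not count in it.

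TEK itself, the angiopoietin receptor, was not tested. It read 1.85, 3.79 and 3.21 in the controls and 4.78, 4.73 and 1.85 in the DFX tumors. Its probe was well above background in DFX replicates 1 and 2 and in no control tumor, and 1 control and 1 DFX tumor shared the lowest value. No fold is given, because the bound against the lowest signal well above background was under 1. The TEK readings therefore give no direction to set beside that of TIE1.

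ENG, the TGF-β family co-receptor, was lower in the DFX tumors. It read 5.24, 6.27 and 5.75 in the controls and 4.91, 4.67 and 4.39 in the DFX tumors, and every DFX tumor was below every control tumor. The difference was -1.09 ± 0.29 (SE, n = 3 per group), a 2.13-fold fall with a 95% interval of -1.80 to -0.39 (limma, adjusted p = 0.514). The ENG probe was well above background in all 3 control tumors but in only 1 DFX tumor, so the DFX level was close to the limit of the array. The call was kept under every alternative that tested the probe, including each tumor left out in turn (-1.35 to -0.84). Its size was smaller with normexp correction (-0.36) and on the raw mean signal (-0.34). ENG is also carried by fibroblasts and other stromal cells. Of 11 fibroblast genes, 10 were tested and 4 were called, beside 10.8% of all tested genes. These were DCN (-1.30 by its brighter probe), PDGFRA (-1.12) and 1 probe of FBLN1 (-0.58) lower and LUM (0.87) higher. The brighter FBLN1 probes (-0.30 and -0.08) and the other tested fibroblast genes were not called. COL1A2 (-0.34), THY1 (-0.30) and COL1A1 (-0.09) read lower, and COL3A1 (1.04), FAP (0.46) and S100A4 (0.24) read higher, with overlapping groups. The summed fibroblast signal was 47720 to 60218 in the controls and 49461 to 56402 in the DFX tumors, with POSTN well above background on no array. The S100A4 probe made up much of this sum, which therefore says little about the other fibroblast genes. The part of fibroblasts in the ENG difference was not tested.

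The VEGF receptors could not be compared. KDR read 2.84, 2.49 and 3.76 in the controls and 2.09, 3.55 and 2.57 in the DFX tumors and was well above background on none of the 6 arrays. The FLT1 probe that was tested read 3.73, 3.80 and 3.05 against 3.37, 3.82 and 3.88, and it too was well above background on none. Both pairs of groups overlapped. Their fitted differences were -0.29 (95% interval -1.46 to 0.87) for KDR and 0.16 (-0.45 to 0.78) for FLT1, below what these arrays could resolve. A second FLT1 probe, designed to another transcript record, stayed between 2.06 and 2.19 and was not tested.

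EMCN and ROBO4 gave no usable signal. EMCN read 1.98 to 2.07 over all 6 tumors, and ROBO4 scattered from 2.43 to 3.98 in the controls and from 2.13 to 4.14 in the DFX tumors. Neither was well above background on any array, nor was either tested. These readings set no level for either gene in either group.

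VWF, the adhesive glycoprotein that endothelial cells and platelets store, was read by 3 probes, of which 2 were well above background on all arrays. The brightest probe read 9.71, 8.47 and 9.39 in the controls and 8.47, 8.59 and 8.79 in the DFX tumors. Control replicate 2 lay with the DFX tumors, and the other 2 controls lay above them. The difference was -0.58 ± 0.32 (SE, n = 3 per group) with a 95% interval of -1.37 to 0.21 (limma, adjusted p = 0.667). Without control replicate 2 the difference was -0.93 and passed unadjusted.

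This VWF probe was printed 10 times on each array, which shows how far repeat spots of 1 labeled sample differ. The SD between its spots on 1 array was 0.03 to 0.10, with 1 spot of DFX replicate 3 left out, compared with an SD of 0.64 between the control tumors and 0.16 between the DFX tumors. Spots of control replicate 2 ranged from 8.35 to 8.64, and those of control replicate 1 from 9.64 to 9.78. Repeat spots do not carry the error of labeling or hybridization, so they bound only a portion of the technical error between tumors. The second VWF probe, farther toward the 5′ end of the gene, read 5.81, 6.26 and 6.02 in the controls and 5.93, 5.82 and 5.93 in the DFX tumors. Here control replicate 2 was the highest tumor and not the lowest control, so the probes did not rank the control tumors alike. Its difference was -0.14 ± 0.14 (SE, n = 3 per group; limma, adjusted p = 0.803). The third VWF probe read 2.17 to 2.72 and was well above background on no array.

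**Figure D3:**
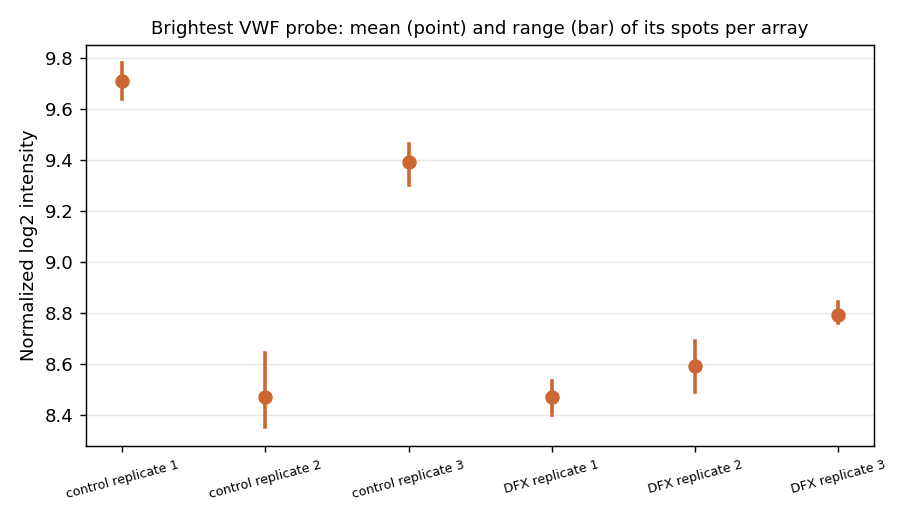
Mean (point) and range (bar) of the log2 intensities of the brightest VWF probe's spots on each array, 10 spots per array and 9 on DFX replicate 3. The spots of an array lie close together, with control replicate 2 at 8.47 beside the DFX arrays and control replicates 1 and 3 at 9.71 and 9.39.

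Ligands of these receptors were read next. Of 22 angiogenic ligand genes, 17 were tested and 4 were called (10.8% of all tested genes), 2 higher and 2 lower, with a median difference of 0.04. PGF, a ligand of FLT1, was higher by both of its probes. The brighter one read 11.71, 12.02 and 11.46 in the controls and 12.15, 12.38 and 12.66 in the DFX tumors, without overlap (0.67 ± 0.20, SE, n = 3 per group; limma, adjusted p = 0.526). The dimmer one differed by 0.53 (limma, adjusted p = 0.578), a call lost without control replicate 2 or 3 or DFX replicate 1 or 3. The main VEGF ligand, VEGFA, differed by 0.24 with its brightest probe (limma, adjusted p = 0.749), with 12.10 to 12.61 in the controls and 12.31 to 12.82 in the DFX tumors. VEGFB and VEGFC differed by -0.08 and 0.02 (limma, adjusted p = 0.836 and adjusted p = 0.989). Unlike the receptors FLT1 and KDR, these VEGF family ligands were well above background on all arrays.

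ANGPT2, the angiopoietin released by activated endothelium, read 4.17, 6.00 and 3.38 in the controls and 3.05, 3.87 and 2.59 in the DFX tumors. It was well above background in 2 control tumors and no DFX tumor, and the groups overlapped. Its bound was at least 1.14-fold lower in the DFX tumors, and the difference did not pass (-1.35, limma, adjusted p = 0.649), although it passed unadjusted without control replicate 3 (-1.92), with array quality weights (-1.92) and with the replicate number as a block (-1.35). Control replicate 2 carried much of it, since without that tumor the difference was -0.61 and no bound remained. ANGPT1 was not tested and was well above background on no array. SLIT2, of the family that signals through roundabout receptors, differed by 0.22 (limma, adjusted p = 0.804) and was well above background in 1 DFX tumor only. SLIT3 was called lower by 1 probe (-0.94, limma, adjusted p = 0.514). Its brighter probe was lower too, without overlap of the groups, but was not called (-0.57, limma, adjusted p = 0.612). The other called ligands were SEMA3F (0.34, limma, adjusted p = 0.555) higher and PDGFA lower by 1 of 2 probes (-0.30, limma, adjusted p = 0.593).

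Other genes of vessels moved in both directions as well. Together with the ligands, 95 further endothelial and angiogenic genes were on the array, 67 were tested and 14 were called by any probe, beside the 10.8% of all tested genes that were called in this way. Among 22 other receptors, 15 were tested and 4 called, namely PLXND1 (0.72) and UNC5B (0.30), guidance receptors, higher, and NRP2 (-0.50 and -0.54 by its 2 called probes), a co-receptor for VEGF, and STAB1 (-0.74), a scavenger receptor, lower. The median over the tested receptors was 0.14. Among 29 other endothelial genes, 20 were tested and 4 called, with a median of 0.10. The water channel AQP1 (0.75) and TM4SF1 (0.66) were higher by their brighter probes only. Their dimmer probes, though well above background on all arrays, were not called and their groups overlapped (-0.11 for AQP1 and 0.25 for TM4SF1). A dim VWA1 probe was called too, but it was well above background in 2 control tumors and no DFX tumor, and no bound on its fold could be set. Several of these genes, such as TM4SF1, are also expressed by carcinoma cells, so their levels are not specific to vessels.

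The junction molecule JAM2 had the lowest p of the other endothelial genes. It read 4.45, 4.59 and 5.16 in the controls and 2.64, 2.02 and 3.10 in the DFX tumors, well above background in all control and no DFX tumors. Its bound was at least 1.32-fold lower, and the fitted difference was -2.14 (limma, adjusted p = 0.504), which shrank to -0.38 with normexp correction and -0.33 on the raw mean signal. The other 2 JAM2 probes were well above background on no array, and their groups overlapped. Thus 2 junction molecules, PECAM1 and JAM2, differed in opposite directions by their called probes. CLDN5, the tight junction protein of endothelium, SELE, VCAM1, ESM1 and CLEC14A were well above background on no array.

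Of 22 endothelial transcription factors, 15 were tested and 2 were called, beside 10.8% of all tested genes, with a median of 0.08. LMO2 was higher at 10.99, 10.92 and 10.57 in the controls against 11.46, 11.39 and 11.51 in the DFX tumors (0.63, limma, adjusted p = 0.513). HEY2 passed as well (0.65, adjusted p = 0.585) but was well above background on no array. ERG, SOX17, SOX18 and TAL1, which drive endothelial programs, were well above background on no array either.

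**Figure D4:**
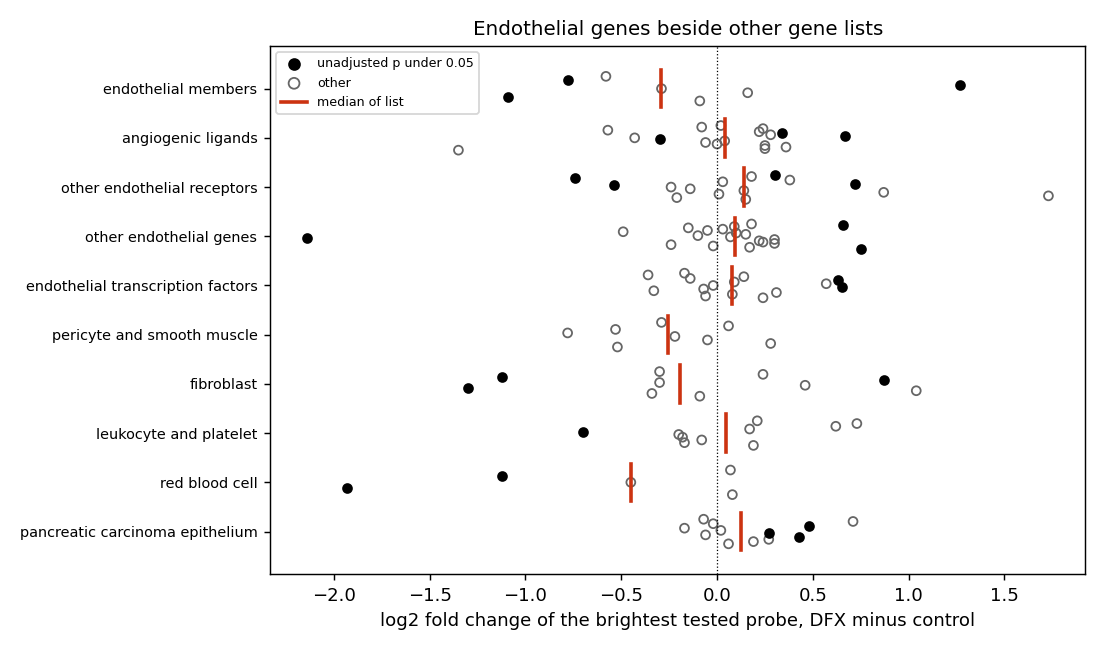
Difference in log2 intensity (DFX minus control) of the brightest tested probe of each gene, by gene list, filled where that probe was called, and red bars at the medians. Each list scatters on both sides of 0, and the medians run from -0.45 for red blood cell genes to 0.14 for other endothelial receptors.

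Markers of the other cells of a tumor were read beside the endothelial genes. None of the 8 tested pericyte and smooth muscle genes of 11 was called, their median was -0.25, and their summed signal was 3807 to 6122 in the controls and 2915 to 4780 in the DFX tumors. The NOTCH3 probe made up much of that sum. PDGFRB, the pericyte receptor, was well above background on no array. The red blood cell genes, which travel with the blood in vessels, separated the groups. Of 7 such genes, 5 were tested and 3 called, all lower, beside 10.8% of all tested genes. The brightest HBA2 probe, for α-globin, read 12.44, 12.67 and 12.27 in the controls and 10.47, 10.53 and 10.59 in the DFX tumors (-1.93, limma, adjusted p = 0.0928). The summed red cell signal, much of it from HBA2, was 6766 to 8041 in the controls and 3140 to 3295 in the DFX tumors. AHSP was well above background on no array. The part of red cell signal in the readings of TIE1 and ENG (lower) and PECAM1 (higher) was not tested.

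The carcinoma markers were bright in every tumor, and all 12 epithelial genes were well above background on all arrays. Of them, 3 were called, beside 10.8% of all tested genes. KRT8, KRT18 and EPCAM were higher by 0.48, 0.27 and 0.43, and the median of the list was 0.13. Its summed signal was 808356 to 849849 in the controls and 846473 to 862264 in the DFX tumors. The summed signal of the 10 endothelial genes was 757 to 1100 and 705 to 747. Sums over different probes are not comparable as amounts of RNA, so only the groups are set against each other. The endothelial sum was lower in every DFX tumor than in any control tumor, but narrowly, at most 747 against at least 757. The brightest VWF probe made up much of this sum, and by that probe alone the groups overlapped. The sum also holds genes that were well above background on no array.

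**Figure D5:**
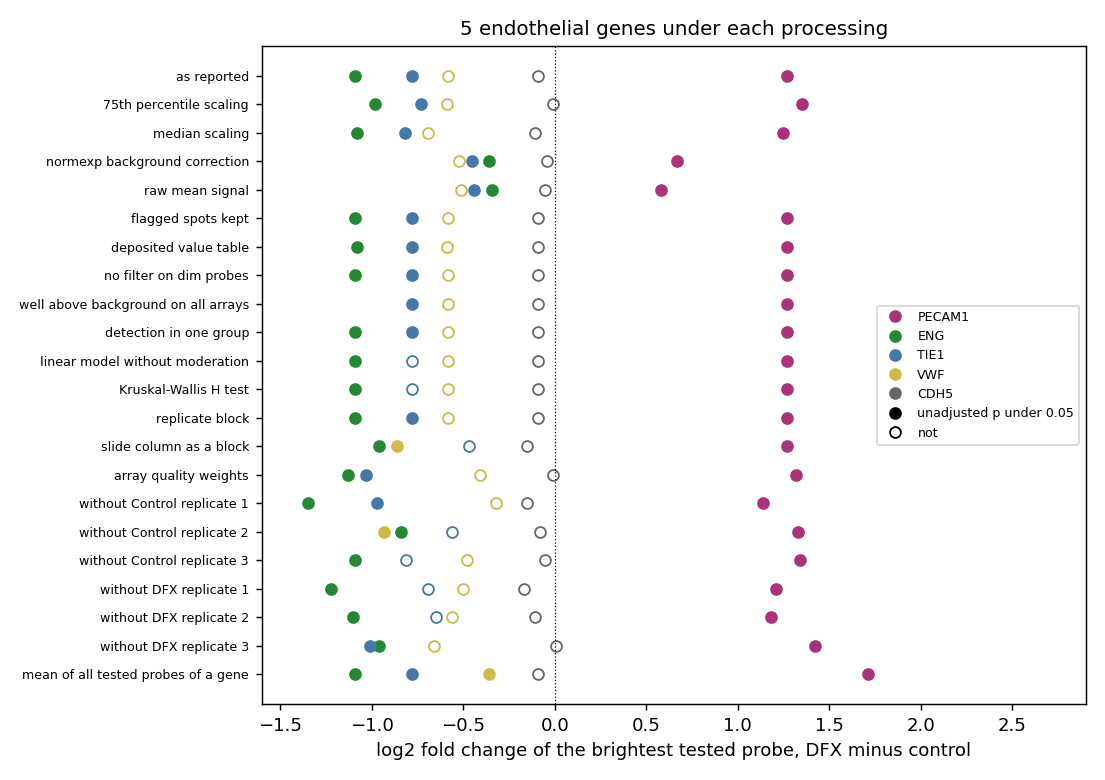
Difference in log2 intensity (DFX minus control) of 5 endothelial genes under the processing reported and each alternative, filled where the p was under 0.05. PECAM1 stays between 0.58 and 1.71 (the latter for the mean of its probes) and filled throughout, ENG stays between -1.35 and -0.34, TIE1 is open in 7 settings and VWF is filled in 3.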

How the data were processed

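Total RNA of 6 tumors, 3 control and 3 DFX, was hybridized to one-color Agilent human arrays, 1 tumor per array. Groups and replicate numbers were taken from the sample labels. The authors deposited a scanner file per array, written by Feature Extraction 10.7.1.1 per the file headers (9.5.1.1 in the submitters' processing notes), which holds linear intensity values that were not normalized between arrays, a p-value of each spot against its background, and flags. They also deposited a table of normalized intensity values, used as an alternative. Quantile-normalizing the processed signal on its linear scale gave these values back to within a median of 0.00438%.

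The processed signal of 58717 non-control spots was log2-transformed and quantile-normalized, the steps that the authors state. Spots with a non-uniformity or population outlier flag (1398 values) were removed and the rest averaged per probe. Of 50599 probes, 31807 had a median p-value against background under 0.05 on each of the 6 arrays and entered the fit, made in R 4.3.3 with limma 3.58.1 (lmFit, eBayes). These carry 22718 gene names. The prior degrees of freedom were 2.04. A call is an unadjusted p under 0.05, the study's threshold, two-sided, and adjusted p-values are Benjamini-Hochberg over all tested probes. A fold is given as a bound if no array of a group read the probe well above background. The dim group's level is then the mean of a floor per array, namely the dimmest signal flagged well above background there, unless the probe itself read higher. On simulated data for this comparison over 31803 probes, 4.87% of unchanged probes were called, 88.0% of probes changed by 1 and 94.6% of those changed by 2 on the log2 scale. The simulation drew the spread of every probe from 1 common distribution, whatever its brightness. These rates therefore need not hold for dim probes, such as many of the endothelial ones.

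The 10 genes and the other gene lists were chosen with earlier results of these data known. Named genes are all 10 genes with every probe, VEGFA, VEGFB, VEGFC, PGF, ANGPT1, ANGPT2 and SLIT2, up to 5 called genes of each other list, the brightest of the cell type lists, and the 5 genes most like the endothelial ones. Genes well above background on no array, and the called ligands, were named besides, after their values were seen. Gene names are those of the array design, and all 10 are RefSeq symbols. The labels do not say whether each tumor came from its own mouse, so p-values measure the spread between these samples. The replicate numbers did not pair the tumors (correlation of deviations 0.0158 to 0.0274). Alternatives covered scaling, background correction, signal, flags, filters, test, blocks, weights, the choice among probes and leaving out tumors singly. Reference sequence of the mouse host was not used here.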

Additional observations from a re-analysis of the deposited data

How the results depend on the processing

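The number of called probes was 2675 as reported, 4927 with the Kruskal-Wallis H test, 4213 with array quality weights, 1418 with the slide column as a block (a fit that rests on the 2 columns holding both groups, to which control replicate 2 and DFX replicate 1 add nothing) and 1889 to 2717 with 1 tumor left out. Lower probes made up 58.8% of the calls as reported, 42.6% after scaling to the 75th percentile and 71.8% after scaling to the median, which moved the median of all tested probes from -0.02 to -0.10. Of the endothelial probes, 5 were called as reported, 2 when only probes well above background on all arrays were tested, 3 without moderation of the variance and 3 to 5 when each tumor was dropped, with 3 in the absence of control replicate 3. Their median of -0.29 was -0.56 to -0.08 with 1 tumor left out and -0.56 without control replicate 2. With the flag for positive and significant signal, 9 of the 15 probes passed on all arrays in place of 5. In the other endothelial lists, 8 genes were called with the slide column as a block in place of 14, and 10 to 15 with 1 tumor left out. Signs turned for some genes, with ranges over the tumors left out of -0.17 to 0.01 for CDH5, -0.08 to 0.32 for FLT1, -0.70 to 0.07 for KDR and -0.22 to 0.24 for VEGFC. They turned for CDH5 without DFX replicate 3 (0.01), for FLT1 with normexp (-0.01), array quality weights (-0.12) and without control replicate 3 (-0.08), for KDR with normexp (0.02), the raw mean signal (0.01) and without control replicate 3 (0.07) or DFX replicate 1 (0.03), and for VEGFC with normexp (-0.00), the raw mean signal (-0.01) and without control replicate 1 (-0.19) or DFX replicate 3 (-0.22). None of these had been called, and the cause was not tested. VWF passed with the slide column as a block (-0.86) and as the mean of its probes (-0.36). Calls outside the 10 genes that were lost on leaving out 1 tumor, for at least 2 of the tumors, were those of UNC5B, PDGFA, HEY2, STAB1, VWA1, SEMA3F, the dimmer PGF probe, FBLN1, LUM, KRT8, KRT18 and ITGA2B, and that of the brighter NRP2 probe was lost without DFX replicate 1 (-0.47). Over the alternatives, adjusted p-values ran from 0.230 to 1.0 for PECAM1 and from 0.272 to 1.0 for ENG and TIE1. Outside the 10 genes, adjusted p-values of both HBA2 probes fell under 0.05 in limma with normexp correction (0.00495), the raw mean signal (0.00816) and median scaling (0.0369). They did so too when only probes well above background on all arrays were tested (0.0211) and with array quality weights (0.0339 and 0.0384). Genes near the background are limited by their signal.

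The replicate numbers are shared by the groups but did not pair the tumors. With the replicate block, 2419 probes, 5 endothelial probes, 3 endothelial genes and 13 genes of the other lists were called, with a median of -0.29 over the endothelial genes.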

Other observations

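PECAM1, CDH5, TIE1 and VWF were the endothelial genes well above background on all arrays. The mean of their centred intensities spanned only -0.04 to 0.12 on the log2 scale over the 6 tumors. It was flat because PECAM1 was higher in the DFX tumors (1.27) while TIE1 (-0.78) and VWF (-0.58, not called) were lower. Of 17795 other genes, LZIC had the profile most like this mean (Pearson r = 0.996 over 6 tumors, as a description), followed by SLC25A30, SLC25A33, SCML1 and NUDT3 (0.990 to 0.987). As the mean averages genes of opposite direction, the likeness describes that average and none of the 4 genes.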
